A study of Homo sapiens with 6 samples.

Results

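The genes described here carry or report the integrated stress response and the unfolded protein response: ATF4, DDIT3, ATF3, TRIB3, ASNS, CHAC1, PPP1R15A, ERN1, ATF6 and XBP1. They were chosen by name, as rows of the count table with a matching symbol, and all 10 were found among its 30230 genes. Cells under stress phosphorylate the translation factor eIF2, which slows protein synthesis in general and favours translation of ATF4, a bZIP transcription factor that activates genes of amino acid supply and further stress regulators. Misfolded protein in the endoplasmic reticulum (ER) is sensed by PERK, which acts on eIF2, by IRE1 (the product of ERN1), which splices XBP1 mRNA into the form that encodes an active factor, and by ATF6, which is cleaved to release a factor. Much of this control lies in translation, splicing and cleavage, whereas the data here are read counts per gene, which do not separate spliced from unspliced XBP1 and do not measure protein.

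The libraries were made from polyadenylated RNA of A549, a line of human lung adenocarcinoma cells used as a model of non-small cell lung cancer. In 3 libraries the cells had received a negative control (NC), and in 3 libraries FSCN1 had been silenced (siFSCN1), which encodes fascin, a protein that bundles actin filaments. According to the study's text the silenced cells received a single one of several siRNAs designed against FSCN1 and the NC cells a scramble siRNA. GEO's treatment entry for NC speaks of a plasmid, and elsewhere the study's text too describes the siRNAs as expressed from a plasmid. The comparison asks which transcripts differ once FSCN1 is silenced. The study's methods give 48 h from transfection to harvest for transfected cells in general. The study calls the libraries biological replicates without naming their source cultures, so p-values measure the spread between these libraries.

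The counts summed to between 27967301 and 36560919 per library. Levels are given as CPM, counts scaled to library size after TMM, and differences as log2 fold changes of siFSCN1 over NC with their standard error (SE) and the adjusted p of edgeR's quasi-likelihood test over all 17076 genes tested. FSCN1 itself had 211, 220 and 212 CPM in NC and 18.3, 11.8 and 13.2 CPM in siFSCN1, a log2 fold change of -3.89 (SE 0.094, adjusted p = 8.1e-16), which fits the labels of all 6 libraries. The difference between the groups ran through the whole table. An adjusted p under 0.05 was reached by 35.1% of all tested genes with higher levels in siFSCN1 and by 33.2% with lower levels, and 16.5% also differed by at least 2-fold in either direction. In 71.3% of the tested genes the CPM of the 3 siFSCN1 libraries did not overlap with that of the 3 NC libraries. All 5 epithelial markers and all 3 enzymes typical of A549 cells were detected in every library, and several differed between the groups. The keratins KRT8 (973 to 592 FPKM, means of NC and siFSCN1), KRT18 (1815 to 1027) and KRT19 (14.9 to 7.78) were lower in siFSCN1, while CDH1 (9.23 to 26.4) and EPCAM (3.15 to 4.30) were higher. Of the enzymes, ALDH1A1 was higher (1687 to 2369 FPKM), AKR1C1 lower (206 to 189), and AKR1B10 (2677 to 3006 FPKM) did not pass the test in CPM (adjusted p = 0.979). The leukocyte gene PTPRC had at most 4 counts in any library, the endothelial gene PECAM1 at most 8 and the fibroblast gene COL3A1 at most 4, while COL1A1 had 73 to 133 counts and did not pass the test (adjusted p = 0.51). The part of these markers in the results below was not tested. The alveolar genes NKX2-1 and SFTPC were near 0, with at most 5 and 13 counts in any library.

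All 10 genes passed the filter on low counts and the test, 8 of them higher in siFSCN1 (ATF4, DDIT3, ATF3, TRIB3, CHAC1, ERN1, ATF6 and XBP1) and 2 lower (ASNS and PPP1R15A). Against the 35.1% and 33.2% of all genes called higher and lower, the 10 genes were changed in most cases upwards, with a median log2 fold change of 0.38 beside 0.03 for all tested genes. The genes were chosen with earlier results of these data known, so this comparison is a description and not a test. The differences were moderate: 0 of the 10 reached 2-fold, beside the 16.5% of all tested genes that did. The CPM ranges of NC and siFSCN1 did not overlap in 10 of the 10 genes, beside 71.3% of all genes. In these bulk libraries, fewer cells with a transcript and less of that transcript per cell cannot be told apart.

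**Figure D1:**
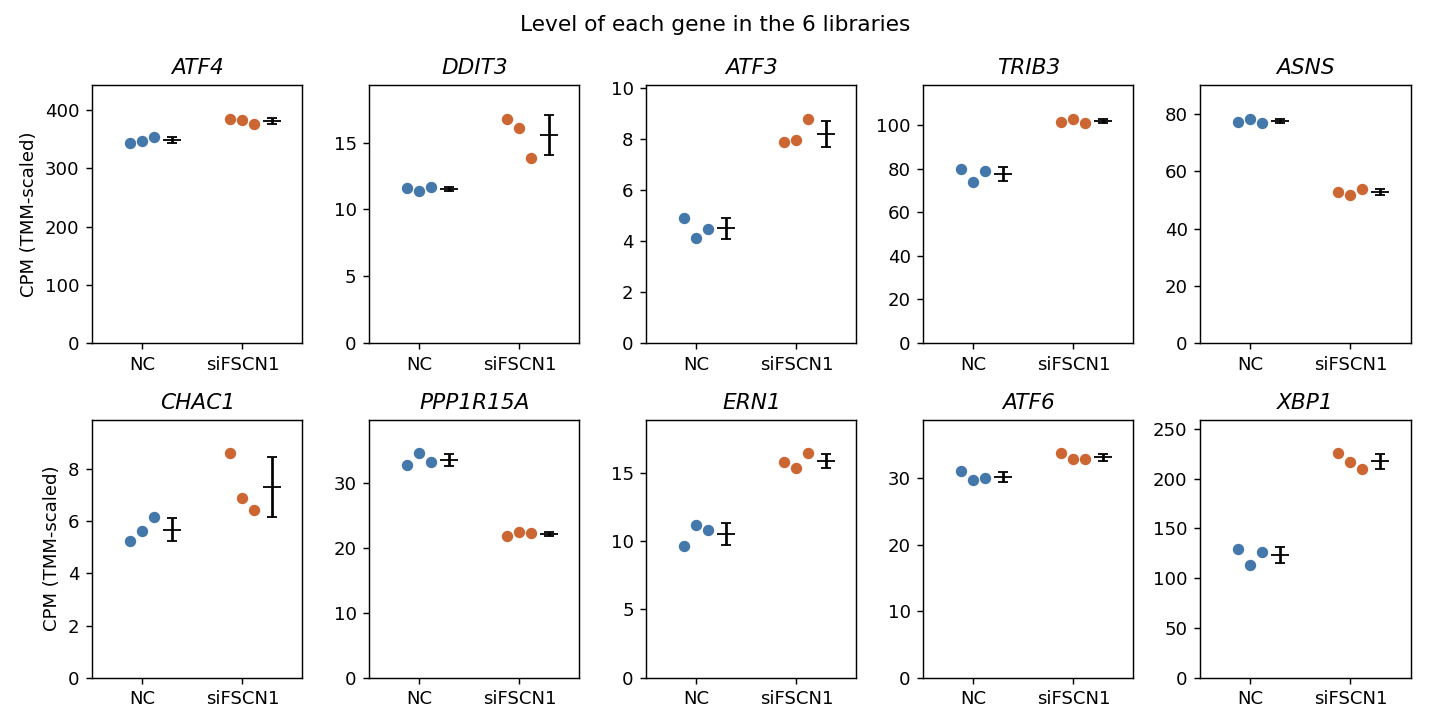
CPM of each of the 10 genes (vertical axes, CPM after TMM scaling, each starting at 0) in the 3 NC and 3 siFSCN1 libraries (points), with the mean and SD of each group beside them. The siFSCN1 points lie above the NC points for 8 genes and below them for ASNS and PPP1R15A.

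Promoter sequences are shown first for the genes in which a response element was found, because the levels of these genes moved in both directions. RefSeq promoters of GRCh38.p14, taken as 250 bases before to 50 bases after the start, matched all 10 genes with 17 start sites. Searched on both strands were the ATF4 element called CARE (TGATGNAA), the cAMP response element called CRE (TGACGTCA), the XBP1 element called UPRE (TGACGTGG) and the ER stress element called ERSE, in which CCAAT and CCACG are spaced by 9 bases. A CARE lay at 1 start site each of ASNS, CHAC1 and ATF3. These are 3 of the 17 promoters of the 10 genes, beside 3.62% of 35116 promoters. A CRE lay in the promoter of PPP1R15A only (1.85% of promoters), an ERSE in that of XBP1 only (0.0769%), and a UPRE in none of the 10 (0.729%). ASNS, ATF3 and XBP1 have 2 start sites each, and the element lay at only 1 of them. Which start site these cells used was not tested. Each line gives 80 bases in the direction of transcription, with the element in capitals. The CHAC1 element reads in the opposite direction.
ASNS, chr7:97872433-97872512, minus strand, CARE 68 to 61 bases before the start: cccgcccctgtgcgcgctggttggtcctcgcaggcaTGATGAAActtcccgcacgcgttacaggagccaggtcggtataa
CHAC1, chr15:40953226-40953305, plus strand, CARE 209 to 202 bases before the start: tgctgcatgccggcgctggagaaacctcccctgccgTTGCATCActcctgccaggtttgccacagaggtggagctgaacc
ATF3, chr1:212565180-212565259, plus strand, CARE 191 to 184 bases before the start: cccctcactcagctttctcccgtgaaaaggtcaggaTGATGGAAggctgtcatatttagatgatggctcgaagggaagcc
PPP1R15A, chr19:48872327-48872406, plus strand, CRE 58 to 51 bases before the start: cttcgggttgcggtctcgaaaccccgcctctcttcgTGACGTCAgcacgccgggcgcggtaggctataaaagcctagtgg
XBP1, chr22:28800573-28800652, minus strand, ERSE 52 to 34 bases before the start: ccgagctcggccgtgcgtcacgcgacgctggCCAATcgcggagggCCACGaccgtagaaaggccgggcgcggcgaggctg

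A match is a description of the letters and not a measured site of binding. The promoters with a CARE belonged to a gene that was lower in siFSCN1 (ASNS) and to a pair that were higher (CHAC1 and ATF3). RefSeq start sites need not be those of GENCODE v44, from which the gene positions below were taken. The ASNS, CHAC1 and PPP1R15A stretches lie inside the GENCODE gene, that of XBP1 overlaps the start of its gene, and that of ATF3 lies before its gene.

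Among the ER sensors and their factor, XBP1 had the largest difference. XBP1 (ENSG00000100219.16, 22:28794555-28800597, minus strand) encodes the bZIP factor made from the mRNA that IRE1 splices. Its level was 129, 114 and 126 CPM in the NC libraries and 226, 217 and 210 CPM in the siFSCN1 libraries. The lowest siFSCN1 library thus lay well above the highest NC library, and the mean rose from 123 ± 8.23 to 218 ± 7.71 CPM (SD, n = 3 each), 1.77-fold. The log2 fold change was 0.82 (SE 0.047, adjusted p = 2.95e-11, edgeR).

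ERN1 (ENSG00000178607.17, 17:64039080-64130819, minus strand), which encodes the kinase and RNase IRE1, was the least abundant of the 10 by the deposited FPKM and rose as well. It had 9.62, 11.2 and 10.8 CPM in NC and 15.8, 15.4 and 16.5 CPM in siFSCN1. The groups did not overlap, and the difference was 1.51-fold (log2 fold change 0.59, SE 0.094, adjusted p = 1.97e-05, edgeR).

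ATF6 (ENSG00000118217.7, 1:161766298-161977574, plus strand), the membrane-bound sensor that is cleaved in the Golgi, differed least clearly. It had 31.0, 29.6 and 29.9 CPM in NC and 33.7, 32.8 and 32.8 CPM in siFSCN1. The groups lay apart by a small margin, 1.10-fold on the means fitted by edgeR (log2 fold change 0.13, SE 0.049, adjusted p = 0.0247). The call was lost with RLE scaling (0.11, adjusted p = 0.0516), with DESeq2 (0.11, adjusted p = 0.133), without the filter on low counts (0.12, adjusted p = 0.104) and when any single library was left out (0.10 to 0.14, adjusted p 0.0546 to 0.0903).

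ATF4 (ENSG00000128272.17, 22:39519695-39522683, plus strand), the factor at the centre of the integrated stress response, was the most abundant of the 10 and among those that changed least. Its level was 344, 347 and 355 CPM in NC and 386, 383 and 376 CPM in siFSCN1. The 6 libraries were tightly grouped and did not overlap, so that a rise of 1.09-fold passed the test (log2 fold change 0.13, SE 0.035, adjusted p = 0.00285, edgeR). The size of this rise depended on the scaling: it was 0.32 with library totals in place of TMM, 0.25 with upper quartile scaling and 0.42 after the trend of fold change with abundance was removed. The 4 named pseudogenes of ATF4 in GENCODE could take or lose reads in counting, as could the 1 of XBP1 and the 5 of ASNS, and how such reads were assigned beyond keeping unique alignments is not given in the sources used here.

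Of the regulators downstream of ATF4, DDIT3, ATF3 and TRIB3 rose and PPP1R15A fell. ATF3 (ENSG00000162772.17, 1:212565334-212620777, plus strand), a bZIP factor induced by many stresses, had 4.91, 4.10 and 4.47 CPM in NC and 7.88, 7.96 and 8.80 CPM in siFSCN1. This was the largest log2 fold change of the 10 in the TMM fit, 0.87 (SE 0.117, adjusted p = 3.06e-06, edgeR), from 108 to 153 counts per NC library and 262 to 299 counts per siFSCN1 library. With library totals in place of TMM, ATF3 and XBP1 passed 2-fold, with log2 fold changes of 1.05 and 1.01. That scaling also moved the median of all tested genes from 0.03 to 0.22.

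TRIB3 (ENSG00000101255.12, 20:362835-397559, plus strand) encodes a pseudokinase that is induced by ATF4 and DDIT3 and restrains their activity. It had 79.9, 74.1 and 78.9 CPM in NC and 101, 103 and 101 CPM in siFSCN1. The siFSCN1 libraries lay close together and above all NC libraries, with a 1.31-fold difference (log2 fold change 0.39, SE 0.044, adjusted p = 3.3e-07, edgeR).

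DDIT3 (ENSG00000175197.13, 12:57516588-57521737, minus strand), which encodes the factor CHOP linked to cell death under lasting ER stress, had 11.6, 11.4 and 11.7 CPM in NC and 16.8, 16.1 and 13.9 CPM in siFSCN1. The third siFSCN1 library was the lowest of its group and still above all NC libraries. The difference was 1.35-fold (log2 fold change 0.43, SE 0.095, adjusted p = 0.000606, edgeR). Of the DDIT3 exons, 27.2% (355 bases) are shared with MARS1 on the opposite strand, which averaged 3672 counts per library and fell (log2 fold change -0.77, adjusted p = 9.29e-12). A further 4.44% are shared with MBD6 on the opposite strand, which rose by 0.89 on the log2 scale. On the same strand, 8.03% (105 bases) are shared with the protein-coding gene ENSG00000285133, which has no row in the count table used here. GEO's labels and the study's methods name different library kits, both of which keep strand, and whether counting used strand is not given in the sources used here. DDIT3 is therefore uncertain, and the part of these neighbours in its counts was not tested.

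PPP1R15A (ENSG00000087074.8, 19:48872212-48876059, plus strand), whose product GADD34 recruits the phosphatase that removes the eIF2 mark, had the larger fall of the pair that fell. It had 32.8, 34.6 and 33.2 CPM in NC and 21.8, 22.4 and 22.3 CPM in siFSCN1. All siFSCN1 libraries lay below all NC libraries, at 0.661 of the NC level (log2 fold change -0.60, SE 0.049, adjusted p = 4.94e-09, edgeR).

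The metabolic enzymes ASNS and CHAC1 moved in opposite directions. ASNS (ENSG00000070669.17, 7:97851677-97872542, minus strand), asparagine synthetase and a standard reporter of ATF4 activity, had 77.2, 78.4 and 77.0 CPM in NC and 52.9, 51.6 and 53.7 CPM in siFSCN1. Both groups were tight, and the siFSCN1 level was 0.680 of the NC level (log2 fold change -0.56, SE 0.046, adjusted p = 4.62e-09, edgeR). On the same strand, 49.3% of the ASNS exonic bases are shared with the long non-coding RNA gene RP5-1090P18.1, which averaged 196 counts per library and did not pass the test (log2 fold change -0.10, adjusted p = 0.492). How reads from the shared bases were assigned is not given in the sources used here. The part of this neighbour in the ASNS counts was not tested.

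CHAC1 (ENSG00000128965.13, 15:40952962-40956512, plus strand), an enzyme that degrades glutathione, was the most variable of the 10 in siFSCN1. It had 5.26, 5.62 and 6.16 CPM in NC and 8.61, 6.89 and 6.42 CPM in siFSCN1. The lowest siFSCN1 library barely cleared the highest NC library, and the first siFSCN1 library stood above its group. The difference was 1.28-fold (log2 fold change 0.36, SE 0.128, adjusted p = 0.0192, edgeR). The call was lost without the first siFSCN1 library (0.21, adjusted p = 0.137) and without the first NC library (0.30, adjusted p = 0.0888), and the count of higher genes then fell from 8 to 6, ATF6 being the other gene lost in each case.

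**Figure D2:**
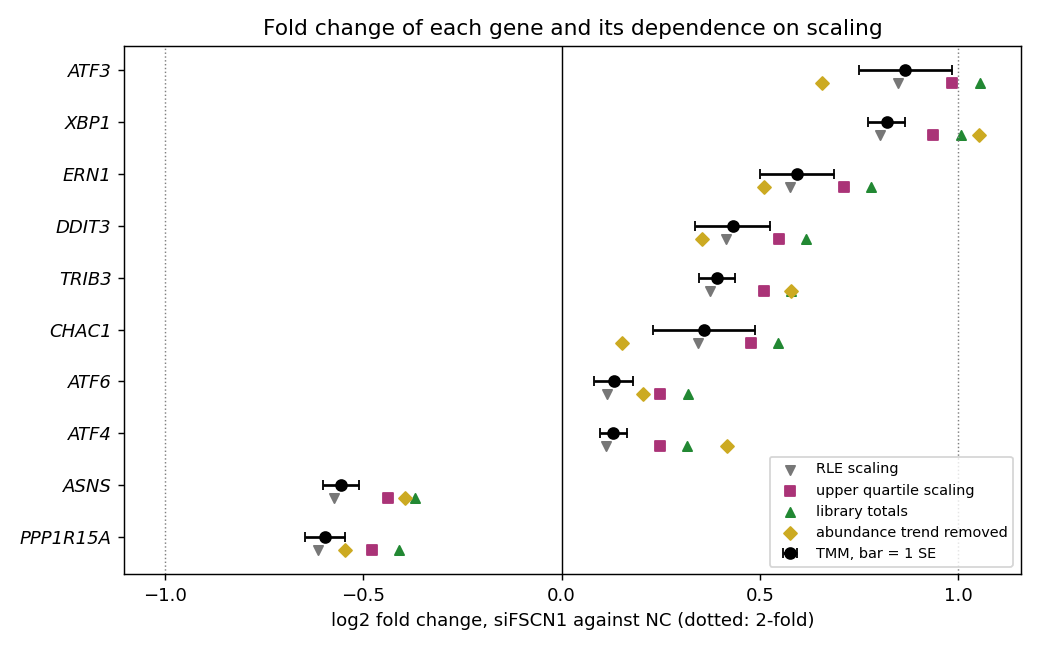
Log2 fold change of siFSCN1 over NC (horizontal axis) for each of the 10 genes with TMM (black, bars of 1 SE from edgeR's fit) and under 4 other scalings (coloured marks), with dotted lines at 2-fold. With TMM, ATF3 and XBP1 lie farthest to the right at 0.87 and 0.82, PPP1R15A and ASNS lie to the left at -0.60 and -0.56, and ATF4 and ATF6 lie nearest to 0 at 0.13 each, and no mark crosses 0.

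The direction of all 10 genes was the same under every scaling, but sizes moved. With library totals ASNS had -0.37, CHAC1 0.55 and ATF6 0.32, and with upper quartile scaling ATF6 had 0.25. After the abundance trend was removed CHAC1 had 0.15 and ATF6 0.20. On log2(FPKM + 1), which understates the change of low values, ERN1 had 0.28 and ATF3 0.57. On the same scale ASNS had -0.36 and PPP1R15A -0.38, close to their -0.37 and -0.41 with library totals, and the deposited FPKM is likewise not scaled by TMM.

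The spread between replicates was read against counting error for each gene. ATF4 varied by a coefficient of variation (CV) of 1.59% in NC and 1.39% in siFSCN1, beside 0.980% and 0.881% from Poisson counting alone. For ATF3 the CV of 9.05% in NC and 6.22% in siFSCN1 was close to what counting gives, which was 8.63% in NC. CHAC1 and DDIT3 spread beyond counting error in siFSCN1, with a CV of 15.8% beside 6.36% for CHAC1 and 9.83% beside 4.36% for DDIT3. XBP1 had the clearest excess in NC, 6.69% beside 1.65%, with its second NC library the lowest.

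Levels can be compared between genes only per length, for which the deposited FPKM was used. The gene lengths behind it are not given in the sources used here, and the order depends on them. In GENCODE v44 all annotated exons together cover 19153 bases for ERN1, 14263 for ATF6 and 2051 for CHAC1. In NC the order ran from ATF4 (106 ± 2.64 FPKM, SD, n = 3) through XBP1 (32.3 ± 2.11), TRIB3 (18.7 ± 0.735), ASNS (12.6 ± 0.162), PPP1R15A (8.69 ± 0.275), DDIT3 (7.02 ± 0.135), CHAC1 (2.20 ± 0.196), ATF6 (1.68 ± 0.030) and ATF3 (0.887 ± 0.0751) to ERN1 (0.437 ± 0.0321). No neighbours in that order overlapped between libraries. In siFSCN1 the same order held except that DDIT3 (10.6 ± 1.11 FPKM) stood before ASNS (9.60 ± 0.277), and the libraries of that pair overlapped, from 9.44 to 11.63 FPKM for DDIT3 and from 9.28 to 9.77 for ASNS. The deposited FPKM is scaled to library depth without TMM, so that its differences between groups run higher than those in CPM.

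Ratios of counts between genes of the same library do not depend on scaling, and these pairs were chosen after the values were seen, so they are descriptions without a test. ASNS per ATF4 was 0.225, 0.226 and 0.217 in NC and 0.137, 0.135 and 0.143 in siFSCN1. Relative to the mRNA of the factor that activates it, ASNS mRNA was therefore lower in every siFSCN1 library. ASNS per TRIB3 went from 1.00 ± 0.0508 to 0.517 ± 0.0153 (SD, n = 3 each), although both are counted as ATF4 targets. PPP1R15A per DDIT3 went from 2.91 ± 0.122 to 1.43 ± 0.158. The limits given above for the counts of ASNS and DDIT3, which share exons with other genes, hold for these ratios too. On the ER side, XBP1 per ATF6 went from 4.07 ± 0.205 to 6.57 ± 0.147, and XBP1 per HSPA5, the gene of the main ER chaperone BiP, from 0.227 ± 0.0144 to 0.408 ± 0.0253.

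**Figure D3:**
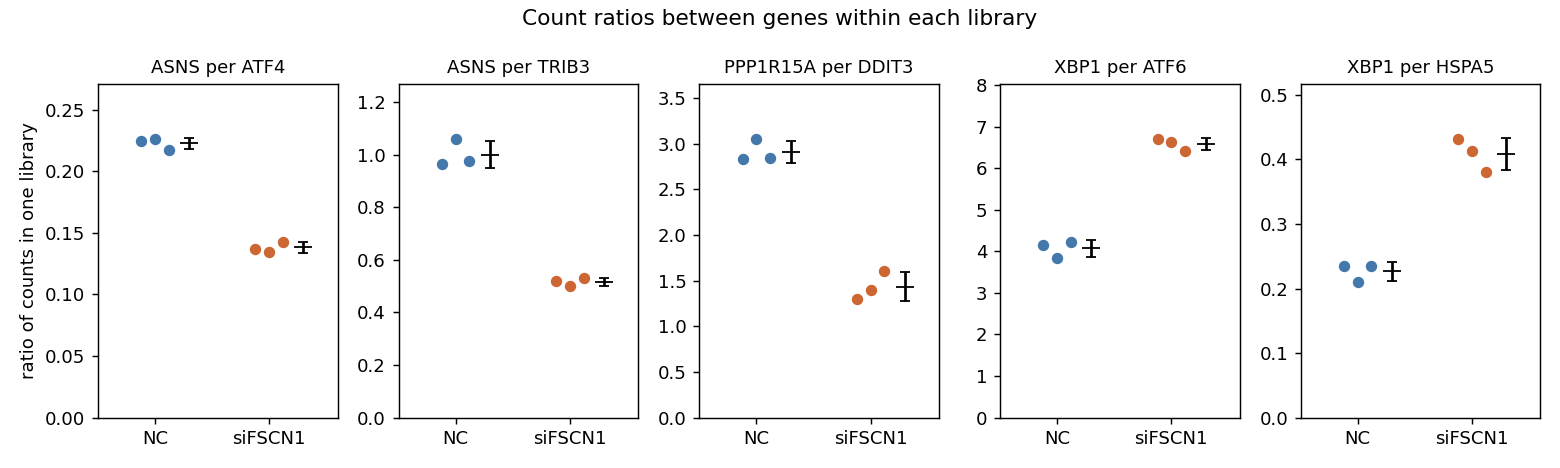
Ratios of read counts between pairs of genes within a library (vertical axes, from 0) for the 3 NC and 3 siFSCN1 libraries, with points for libraries and the mean and SD of each group beside them. ASNS per ATF4, ASNS per TRIB3 and PPP1R15A per DDIT3 were lower in every siFSCN1 library, and both XBP1 ratios were higher.

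The wider pathway was described with 10 lists of 129 genes beside the members, of which 125 passed the filter on low counts. CREB3L1, FGF21, ERN2 and DERL3 did not. Of the 125, 43 (34.4%) were higher in siFSCN1 and 60 (48%) lower, beside 35.1% and 33.2% of all tested genes, with a median log2 fold change of -0.10 beside 0.03 over all tested genes. This balance depended on scaling. With library totals, where the median of all tested genes was 0.22, the split was 59 higher (47.2%) and 40 lower (32%), beside 46.7% and 22.4% of all tested genes. The share of higher genes was thus near that of all genes in both cases, and the share of lower genes was above that of all genes in both. The counts of the single lists are to be read against the same shares. The lists too were chosen with earlier results of these data known, so these comparisons are descriptions.

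Upstream of ATF4, the list of eIF2 kinases, eIF2, its exchange factor eIF2B and its phosphatase had 3 of 17 genes higher and 12 lower (median -0.27), and 4 higher and 8 lower with library totals. The falls of at least 2-fold were those of EIF2B5, the catalytic subunit of eIF2B (52.2 ± 1.83 to 18.5 ± 0.829 CPM, log2 fold change -1.50, adjusted p = 7.29e-14), and of PPP1R15B, the constitutive partner of the eIF2 phosphatase (60.5 ± 5.45 to 23.2 ± 1.46 CPM, -1.38, adjusted p = 2.62e-12). PPP1R15B and PPP1R15A, the pair that directs dephosphorylation of eIF2, thus both fell. Of the abundant eIF2 subunits, EIF2S3 fell by 0.37 on the log2 scale (adjusted p = 7.62e-08), and EIF2S2 had -0.10 (adjusted p = 0.033), which was 0.09 with library totals. Named after their values were seen, the kinase genes EIF2AK3 (PERK) and EIF2AK4 (GCN2) did not pass the test, with -0.02 (adjusted p = 0.862) and -0.13 (adjusted p = 0.132), while EIF2AK1 (HRI) fell by 0.70 on the log2 scale (adjusted p = 2.02e-11) and EIF2AK2 (PKR) by 0.21 (adjusted p = 0.00234). The 3 that rose were DNAJC3 (0.66), OMA1 (0.61) and DELE1 (0.14, adjusted p = 0.0394). OMA1 and DELE1 are known for relaying mitochondrial stress to HRI. DNAJC3 and DELE1 too were named after their values were seen. The rise of DELE1 was weak, with CPM that overlapped between NC (41.6 to 45.8) and siFSCN1 (44.5 to 51.9). With RLE scaling and with DESeq2, 2 genes of this list were higher.

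Among the other bZIP factors of stress, 6 of 9 tested genes were higher and 2 lower. ATF5, itself translated under eIF2 phosphorylation, fell from 70.7 ± 2.42 to 18.8 ± 2.14 CPM (-1.91, SE 0.067, adjusted p = 4.69e-14). Its level thus moved against that of its relative ATF4. CREB3L2 rose by 0.62 (adjusted p = 5.26e-09) and CEBPB, a dimer partner of ATF4, by 0.15 (adjusted p = 0.00281). CREB3, the other that was lower, had -0.11 (adjusted p = 0.0487) and 0.07 with library totals.

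Target genes of ATF4 split in both directions. Of 12 genes of amino acid and one-carbon synthesis, 3 were higher, 4 lower and 5 did not pass (median -0.07), and with library totals 6 were higher and 2 lower. CBS, which makes cystathionine, rose from a low level (1.42 to 3.07 CPM, 1.11, adjusted p = 1.61e-05), as did the mitochondrial folate enzyme ALDH1L2 (1.00, adjusted p = 4.95e-07). PHGDH, the entry enzyme of serine synthesis and named after its values were seen, was the other that rose (0.48, adjusted p = 1.43e-07). PSAT1, the next step of serine synthesis, had -0.07 (adjusted p = 0.096). With library totals PSAT1 was higher (0.11, adjusted p = 0.0144), and with RLE scaling it was lower (-0.09, adjusted p = 0.0447). GOT1 fell by 0.28 (adjusted p = 8.22e-05) and did not pass with library totals (-0.09, adjusted p = 0.105).

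Of 8 amino acid transporter genes, 5 were higher and 3 lower (median 0.30), and 5 higher and 2 lower with library totals. SLC7A11, the cystine carrier, rose from 123 ± 3.09 to 248 ± 15.2 CPM (1.01, adjusted p = 8.12e-13), and SLC1A4, a carrier of neutral amino acids, by 1.03 (adjusted p = 6.69e-12). SLC7A5, the leucine carrier, fell from 1416 ± 22.8 to 793 ± 23.1 CPM (-0.84, adjusted p = 9.04e-13). Its heavy chain SLC3A2, which also partners SLC7A11, fell by 0.33 (adjusted p = 3.65e-07). The light chains that share SLC3A2 thus moved in opposite directions.

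Of 12 tested stress effectors, 7 were higher and 5 lower (median 0.32), and 7 and 4 with library totals. NUPR1, a stress-induced nuclear protein, had the largest rise of all the lists, from 20.3 ± 1.45 to 70.4 ± 4.98 CPM (1.79, SE 0.064, adjusted p = 5.97e-14). DDIT4, an inhibitor of mTORC1, rose from 125 ± 1.66 to 245 ± 4.77 CPM (0.97, adjusted p = 1.3e-13). TNFRSF10B, the death receptor DR5 and a target of CHOP, fell from 178 ± 10.8 to 71.2 ± 1.48 CPM (-1.32, adjusted p = 5.15e-14). That was against the direction of DDIT3, whose counts are uncertain as given above. EIF4EBP1, a brake on cap-dependent translation, fell by 0.35 (adjusted p = 1.12e-06).

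On the ER side, the genes that act with the sensors moved in both directions, and their balance depended on scaling. In the machinery that activates IRE1 and ATF6, 2 of 8 tested genes were higher, 3 lower and 3 did not pass (5 higher and 2 lower with library totals). RTCB, the ligase that joins the exons of spliced XBP1 mRNA, fell from 148 to 82.5 CPM (-0.85, adjusted p = 5.41e-12), while MAP3K5, a kinase downstream of IRE1, rose by 0.63 (adjusted p = 0.00186). The other that rose was MBTPS1, the protease that makes the first cut in ATF6, with 0.42 (adjusted p = 6.1e-07), named after its values were seen. TMBIM6, a regulator of IRE1, had -0.02 (adjusted p = 0.589), and was higher with library totals (0.16, adjusted p = 0.000414).

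Of 15 ER chaperones and folding enzymes, 4 were higher, 5 lower and 6 did not pass (median -0.03), and with library totals 9 were higher and 3 lower. HSPA5, a standard marker of ER stress named after its values were seen, had -0.03 (adjusted p = 0.529). Its deposited FPKM, which is not scaled by TMM, was 66.1 ± 0.133 in NC and 72.8 ± 2.17 in siFSCN1. The abundant PPIB had -0.03 (adjusted p = 0.524), and was higher with library totals (0.16, adjusted p = 0.000707). HYOU1, a partner of BiP, fell from 90.9 ± 2.46 to 30.4 ± 1.69 CPM (-1.58, adjusted p = 2.77e-14) and SDF2L1 by 0.48 (adjusted p = 8.27e-07). CALR had -0.18 (adjusted p = 0.000371) and did not pass with library totals (adjusted p = 0.884).

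Of 19 XBP1 targets in translocation and secretion, 5 were higher and 10 lower (median -0.13), and with library totals 8 were higher and 6 lower. DNAJB9, a co-chaperone of BiP, moved with XBP1, from 28.4 ± 1.68 to 57.8 ± 0.958 CPM (1.02, adjusted p = 1.12e-11). KDELR3, a receptor that returns ER proteins, fell by 0.84 (adjusted p = 1.22e-08), and the translocon subunits SEC61G and SEC61B by 0.40 (adjusted p = 6.05e-07) and 0.22 (adjusted p = 0.00191). SEC61B did not pass with library totals (-0.03, adjusted p = 0.613) or with upper quartile scaling (-0.10, adjusted p = 0.119).

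Of 14 tested genes of ER-associated degradation, 7 were higher and 6 lower (median 0.17), and 8 and 6 with library totals. VCP, the ATPase that pulls proteins out of the ER membrane, fell from 622 ± 5.48 to 276 ± 7.82 CPM (-1.17, SE 0.036, adjusted p = 1.03e-14), and DERL2 fell by 0.97 (adjusted p = 5e-11). The lectin ERLEC1 rose by 0.57 (adjusted p = 1.8e-09). Mitochondrial chaperones and proteases were lower in 10 of 11 genes (median -0.40), and in 6 of 11 with library totals. TRAP1 fell by 0.80 (adjusted p = 2.36e-12) and HSPE1 by 0.69 (adjusted p = 1.09e-10), while HSPD1 had -0.18 (adjusted p = 0.000289) and 0.01 with library totals. The 1 gene of this list that was higher was the protease LONP1 (0.33, adjusted p = 8.62e-07), named after its values were seen.

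**Figure D4:**
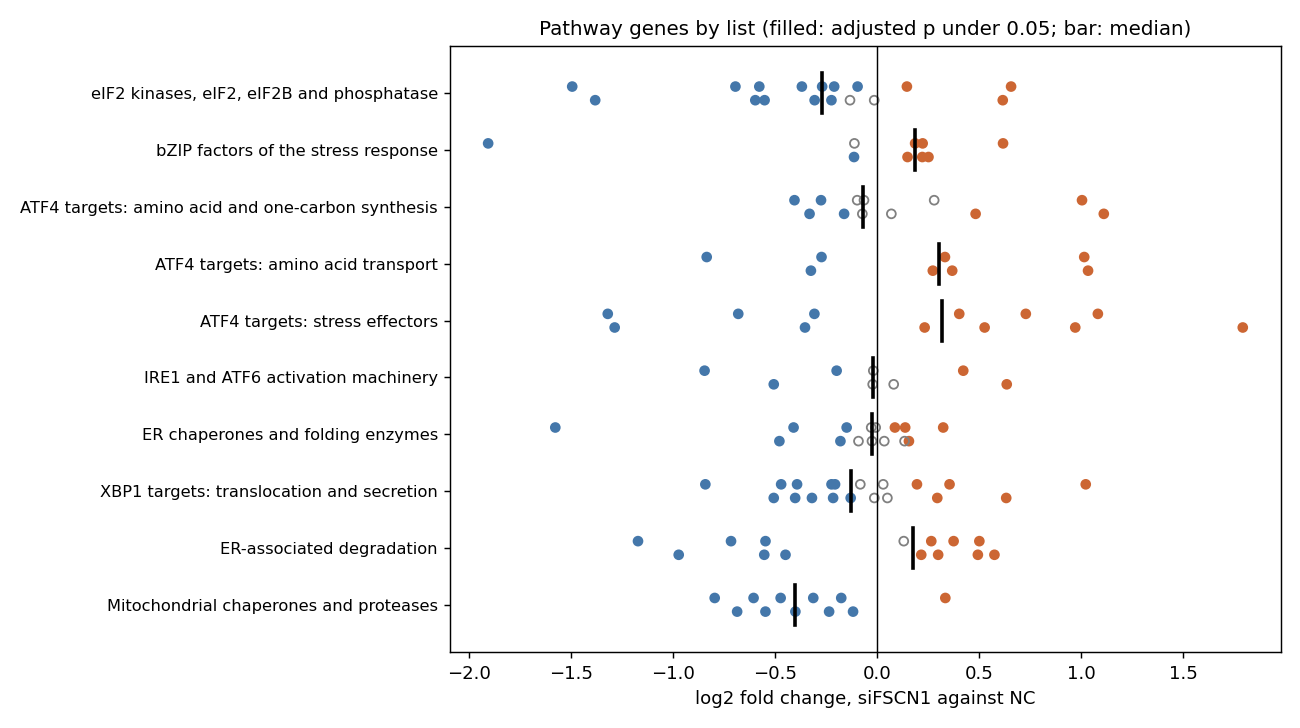
Log2 fold change of siFSCN1 over NC (horizontal axis) for the tested genes of each of the 10 lists (points, 1 row per list, filled where the adjusted p was under 0.05), with the list's median as a vertical bar. Every list has genes on both sides of 0, and the medians run from -0.40 for mitochondrial chaperones and proteases to 0.32 for stress effectors of ATF4.

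The genes whose log2 CPM followed ATF4 most closely over the 6 libraries, among 134 genes of the lists and members, were SYVN1 (Pearson r 0.990), OMA1 (0.982), ERLEC1 (0.981), DNAJB9 (0.976) and XBP1 (0.966). The 6 libraries fall into 2 groups, so any gene that rose evenly in siFSCN1 follows ATF4 in this way, and no p is given. SYVN1, the ubiquitin ligase of ER-associated degradation, differed by 0.26 on the log2 scale between the groups, and ERLEC1 and DNAJB9 belong to the ER lists described above.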

How the data were processed

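RNA-seq of 3 NC and 3 siFSCN1 libraries of A549 cells was compared, with groups and replicate numbers from the sample titles. The authors deposited raw read counts for 30230 genes and FPKM for 29899 genes. By the study's methods, the authors dropped reads with over 2 Ns, trimmed them with FASTX Toolkit, dropped reads under 16 nt, aligned them to GRCh38 with HISAT2 (up to 4 mismatches) and kept unique alignments, while the labels' processing notes name TopHat2 and bcl2fastq. The program used for counting, the annotation and any strand setting are not given in the sources used here.

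Counts were filtered with filterByExpr (17076 genes), scaled by TMM and compared with edgeR 4.0.16 (glmQLFit, glmQLFTest; R 4.3.3, no covariate) with Benjamini-Hochberg adjustment. The threshold was an adjusted p of 0.05. SE was the log2 fold change divided by the square root of F. Log2 CPM used a prior count of 2. The authors used DESeq2, which served as an alternative (1.42.0), beside RLE, upper quartile and library total scaling, no filter, a stricter one (at least 10 counts on average and 1 CPM in 3 libraries), a replicate block, leaving out each library, limma 3.58.1 on log2(FPKM + 0.1) and log2(FPKM + 1), and removal of the abundance trend (loess span 0.3).

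The genes and lists were chosen with earlier results of these data known. Named were the members, FSCN1, the 2 most abundant genes by FPKM and the 2 with the largest called change in each list, the 5 genes most like ATF4, and others said to be chosen after their values were seen. Within groups r of log2 CPM was 0.991 to 0.994, and between groups 0.959 to 0.966. No pair of replicates agreed within sampling noise (chi-square per degree of freedom 3.06 to 8.15). Positions came from GENCODE v44 and promoters from RefSeq (GRCh38.p14).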

Additional observations from a re-analysis of the deposited data

How the results depend on the processing

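FSCN1 fell under all 16 alternatives (log2 fold change -4.11 to -3.41), and ASNS, PPP1R15A, XBP1, ERN1, TRIB3, ATF3, DDIT3 and ATF4 kept their direction and their call under all 16, of which removal of the abundance trend moves the values and keeps the p of the edgeR fit. ATF6 lost its call in 9 of them and CHAC1 in 2, with the direction unchanged, as given with each gene. The count of members that changed at least 2-fold, 0 in the main comparison, was 2 with library totals and 1 with the abundance trend removed (XBP1), and 0 under the others. The share of all tested genes that changed at least 2-fold was counted for the main comparison only (16.5%), so these counts have no share beside them. The count of listed pathway genes lower in siFSCN1, 60 with edgeR, was 38 by limma at a pseudocount of 0.1 FPKM and 38 at 1 FPKM, and with edgeR 40 with library totals, 48 with upper quartile scaling and 50 with the abundance trend removed. Their count of higher genes ranged from 40 to 59. The shares of all tested genes called higher and lower were counted only for the main comparison and for library totals. Library totals moved the median over the tested genes from 0.03 to 0.22, and upper quartile scaling to 0.15, so that small negative values are relative to the scaling. The replicate numbers did not pair the samples (correlations of deviations -0.03, 0.04 and -0.08), and with the replicate number as a block 8 members were higher and 2 lower, with 44 listed genes higher and 60 lower. Counting error was largest for ATF3 and CHAC1, at 108 to 299 and 148 to 296 counts per library.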

Other observations

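Within the siFSCN1 group, replicate 1 had the most remaining FSCN1 RNA (18.3 CPM, beside 11.8 and 13.2 CPM). Among the genes higher in siFSCN1, ATF4, DDIT3, CHAC1, ATF6 and XBP1 were highest in replicate 1, TRIB3 in replicate 2, and ATF3 and ERN1 in replicate 3. The margin over replicate 2 was small for ATF4 (386 beside 383 CPM, with 0.881% from Poisson counting). It was also small for ATF6 (33.7 beside 32.8 CPM, with 2.99%). How often all genes higher in siFSCN1 were highest in replicate 1 was not counted. This order of the libraries was seen after the values were known, and 3 libraries allow no test of it.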
